A study of Mus musculus with 16 samples.

Results

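Hepcidin and the genes of the bone morphogenetic protein (BMP) arm that sets its level were followed across the livers of 16 male mice. The 10 genes were taken by their symbols from the 17003 genes of the deposited expression table: *Bmp6*, *Tfr2*, *Hfe*, *Tmprss6*, *Id1*, *Smad6*, *Smad7*, *Atoh8*, *Hamp* and *Hamp2*. All 10 were found once. The study asked what the liver-secreted protein FGL1 does in metabolism, and compared 8 *Fgl1* LWT mice, floxed littermates without CRE, with 8 *Fgl1* LKO mice, which carry the same floxed alleles and CRE under the albumin promoter, active in hepatocytes. All mice were 8 weeks old, labelled as fed, and ate a normal chow (SAFE A04). Poly(A) RNA of the whole liver was sequenced with a strand-specific protocol on the DNBSEQ platform, 1 library per mouse, and values are given as FPKM, fragments scaled to transcript length and to the mapped fragments of the library, a level that can be compared between genes.

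Hepcidin is the peptide hormone by which hepatocytes limit iron entry into plasma. It binds the iron exporter ferroportin on enterocytes and macrophages and has it degraded. Its gene is switched on by BMP6, which liver sinusoidal endothelial cells release when iron is high, and which acts through hepatocyte BMP receptors, the co-receptor hemojuvelin and SMAD transcription factors, while inflammation acts on the same gene through IL-6 and STAT3. FGL1 itself has been described as a BMP antagonist that lowers hepcidin.

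*Fgl1* (chromosome 8, from 41644457 to 41668205, minus strand, GRCm39 with the GENCODE annotation) was at 158, 312 and 1331 FPKM in the lowest, median and highest *Fgl1* LWT mouse and at 13.2, 50.3 and 90.0 FPKM in the *Fgl1* LKO mice. No LKO mouse reached the lowest LWT mouse (log2 fold change on log2(FPKM + 1) of -3.11, two-sided exact permutation p = 0.000155, which 8 against 8 mice cannot go below, with an adjusted p = 0.0725 from limma over all genes). It passed the threshold with a replicate block (adjusted p = 0.0197 from limma), with equal sums (0.0372), when adjusted for 4 runs (0.025) or 5 (0.0339), and without the first run (0.0452). In the other 23 of 28 alternative settings it did not pass, with an adjusted p of up to 0.223 from limma. The level is given per gene and not per exon, and the counting step is not described. Whether the level left in LKO comes from exons that the deletion leaves in place was not tested. The FPKM of a mouse summed to 673153 to 786188, the number of reads per mouse is unknown, and 14116 to 14407 genes were above 0. The 6 hepatocyte markers, among them *Alb*, summed to 47200 to 87200 FPKM and none was at 0, and the 6 pancreatic acinar markers summed to at most 2.45 FPKM. Library numbers in the labels were cut into 4 runs (36 to 38, 48 to 55, 60 to 64 and 69 to 72). The cut is a choice, since the gap between 50 and 55 is as wide as those between the later runs, and 5 runs, with LKO replicate 3 (number 55) alone, were tried as well after the data were seen. The first run holds 3 *Fgl1* LWT mice and no LKO mouse, so that a difference between that run and the others lies partly between the genotypes.

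*Hamp* and *Hamp2*, the hepcidin genes of the mouse, lie near each other on the minus strand of chromosome 7, *Hamp* from 30641766 to 30643990 and *Hamp2* from 30621797 to 30624106 (GRCm39, GENCODE).

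The 10 genes spanned more than 3 orders of magnitude in level. *Hamp* was highest in every mouse, with 3719 ± 1621 FPKM (SD, n = 16 mice), followed by *Tmprss6* with 177 ± 16.7, *Tfr2* with 129 ± 12.6 and *Hamp2* with 96.3 ± 89.5 FPKM. *Hfe* (11.5 ± 1.36 FPKM), *Atoh8* (10.6 ± 3.15 FPKM) and *Id1* (5.77 ± 2.99 FPKM) came next, and *Smad6* (2.00 ± 0.504 FPKM), *Smad7* (1.94 ± 0.625 FPKM) and *Bmp6* (1.27 ± 0.629 FPKM) were lowest. Neighbours in this order changed places in some mice, since *Hfe* lay above *Atoh8* in 10 of 16 mice, *Smad6* above *Smad7* in 7 of 16 and *Tfr2* above *Hamp2* in 13 of 16. The spread between mice also differed from gene to gene. The highest mouse had 1.39 times the lowest for *Tfr2* and 1.38 times for *Tmprss6*, against 4.22 times for *Hamp*, 5.38 times for *Bmp6*, 6.87 times for *Id1* and 17.6 times for *Hamp2*.

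**Figure D1:**
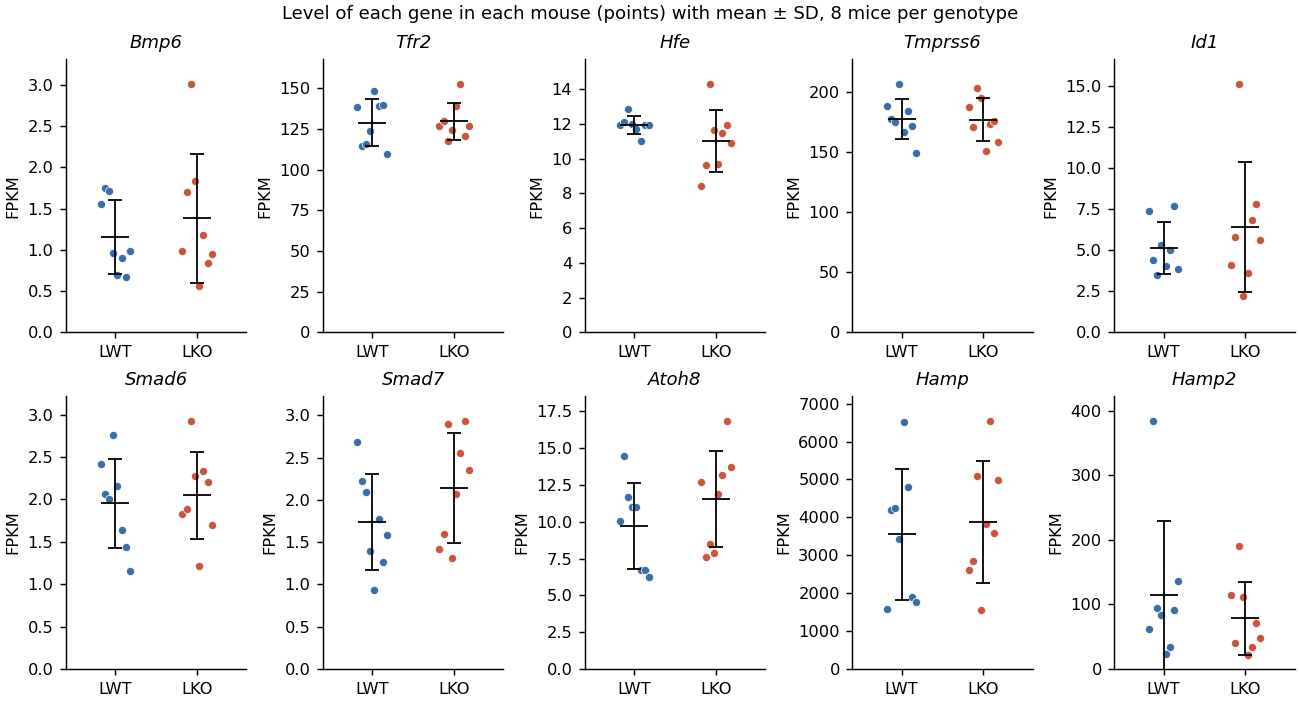
FPKM (linear axes from 0) of each of the 10 genes in each of the 8 *Fgl1* LWT and 8 *Fgl1* LKO mice (points), with mean ± SD (bars). The genotypes overlap for every gene, and the lower SD bar of *Hamp2* in LWT runs below 0 and ends at the axis.

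None of the 10 genes passed the test between genotypes. With limma, 0 of 10 had an adjusted p under 0.05 and 0 of 10 an unadjusted p under 0.05, where 0% and 7.01% of the 12770 genes tested did. For all 10 genes the values of *Fgl1* LWT and *Fgl1* LKO mice overlapped. The share of genes that overlap over the whole table was not counted, so the overlap is not shown to be particular to these 10. The means of 7 genes were higher and of 3 lower in LKO, and their median log2 fold change was 0.08 against 0.01 over all genes tested. The 95% intervals set how large a difference these mice could have missed, on the FPKM + 1 scale. They ran from 0.906-fold to 1.12-fold for *Tfr2* and from 0.894-fold to 1.11-fold for *Tmprss6*, but from 0.706-fold to 1.80-fold for *Hamp* and from 0.373-fold to 1.61-fold for *Hamp2*.

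*Bmp6*, the ligand of this arm (chromosome 13, from 38529065 to 38684280, plus strand), was at 0.67, 0.975 and 1.75 FPKM in the lowest, median and highest *Fgl1* LWT mouse and at 0.56, 1.08 and 3.01 FPKM in the LKO mice. Replicate 3 of the LKO mice stood highest, and the lowest mouse was also LKO. The log2 fold change was 0.11 (95% interval -0.24 to 0.47, adjusted p = 0.888 from limma, exact permutation p = 0.564), and it was -0.00457 without that replicate. It was 0.25 (95% interval -0.10 to 0.59, adjusted p = 0.71 from limma) in a fit adjusted for run and 0.31 (-0.07 to 0.70, adjusted p = 0.796 from limma) when the first run was left out. With 0.01 in place of 1 added to the FPKM, the value over all mice was 0.173 (95% interval -0.466 to 0.811). In bulk liver, fewer cells of a type and less RNA per cell cannot be told apart, which bears on *Bmp6* as a gene of endothelial cells.

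*Tfr2* and *Hfe* encode transferrin receptor 2 and the hemochromatosis protein, by which hepatocytes sense transferrin-bound iron. *Tfr2* (chromosome 5, from 137568087 to 137586343, plus strand) was at 110, 131 and 149 FPKM in the lowest, median and highest LWT mouse and at 118, 127 and 153 FPKM in LKO. Its log2 fold change of 0.01 (95% interval -0.14 to 0.17, adjusted p = 0.972 from limma) corresponded to 1.01-fold. *Hfe* (chromosome 13, from 23886017 to 23894914, minus strand) was at 11.0, 11.9 and 12.8 FPKM in LWT and at 8.43, 11.2 and 14.3 FPKM in LKO. The LWT mice lay close together (11.9 ± 0.506 FPKM, SD, n = 8) and the LKO mice spread on both sides of them (11.0 ± 1.79 FPKM, SD, n = 8), with 2 of 8 LKO mice above the LWT median. The log2 fold change of *Hfe* was -0.12 (95% interval -0.29 to 0.05, adjusted p = 0.736 from limma, exact permutation p = 0.144). Without replicate 3 of the LKO mice, the highest of all, it was -0.17 (95% interval -0.32 to -0.03), with an unadjusted p under 0.05 and an adjusted p = 0.568 from limma.

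*Tmprss6* encodes matriptase-2, the membrane protease that cleaves hemojuvelin and so holds hepcidin down (chromosome 15, from 78323867 to 78352881, minus strand). It was at 149, 176 and 207 FPKM in the lowest, median and highest LWT mouse and at 151, 174 and 203 FPKM in LKO. The distributions were nearly superimposed, with a log2 fold change of -0.01 (95% interval -0.16 to 0.15, adjusted p = 0.984 from limma).

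The readouts of BMP signalling were *Id1*, an inhibitor of DNA binding (chromosome 2, from 152566218 to 152579544, plus strand), the inhibitory SMAD genes *Smad6* (chromosome 9, from 63860341 to 63929793, minus strand) and *Smad7* (chromosome 18, from 75500374 to 75529006, plus strand), and *Atoh8*, a basic helix-loop-helix factor (chromosome 6, from 72183161 to 72212602, minus strand). *Id1* was at 3.47, 4.72 and 7.69 FPKM in the lowest, median and highest LWT mouse and at 2.20, 5.72 and 15.1 FPKM in LKO, where replicate 3 again stood highest. *Smad6* was at 1.15, 2.04 and 2.76 FPKM in LWT and at 1.21, 2.05 and 2.93 FPKM in LKO. The medians of *Smad6* were almost equal, and those of *Id1* differed by less than the spread within either genotype. *Smad7* was at 0.93, 1.68 and 2.68 FPKM in LWT and at 1.31, 2.21 and 2.94 FPKM in LKO. *Atoh8* was at 6.27, 10.5 and 14.5 FPKM in LWT and at 7.60, 12.3 and 16.9 FPKM in LKO. For both *Smad7* and *Atoh8*, 5 of 8 LKO mice lay above the LWT median.

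The log2 fold changes were 0.15 for *Id1* (95% interval -0.37 to 0.68, adjusted p = 0.896 from limma), 0.05 for *Smad6* (-0.21 to 0.30, adjusted p = 0.938 from limma), 0.20 for *Smad7* (-0.10 to 0.49, adjusted p = 0.762 from limma) and 0.23 for *Atoh8* (-0.15 to 0.61, adjusted p = 0.783 from limma). The first run of library numbers bore on the last 2. In the LWT mice of that run *Smad7* was at 2.68, 2.23 and 2.09 FPKM, the 3 highest values of the genotype, and *Atoh8* at 10.03, 14.48 and 11.70 FPKM. A fit that adjusted for run gave 0.41 for *Smad7* (95% interval 0.11 to 0.71, adjusted p = 0.534 from limma) and 0.45 for *Atoh8* (0.01 to 0.88, adjusted p = 0.612 from limma). Leaving that run out gave 0.38 for *Smad7* (95% interval 0.07 to 0.68, adjusted p = 0.758 from limma) and 0.42 for *Atoh8* (0.00458 to 0.84, adjusted p = 0.774 from limma). Adjusted for 5 runs, they were 0.36 (adjusted p = 0.533 from limma) and 0.48 (adjusted p = 0.582 from limma). The unadjusted p of both genes was under 0.05 in these fits. Neither passed the threshold over all genes in any of these fits. The fits are not independent of each other. With run as a term, the LWT mice of the first run do not enter the genotype estimate, since that run holds no LKO mouse. With 5 runs, LKO replicate 3, alone in its run, does not enter it either. With 0.01 in place of 1 added to the FPKM and no term for run, the intervals of the low genes were wider. The log2 fold change was then 0.0745 for *Smad6* (95% interval -0.316 to 0.465) and 0.306 for *Smad7* (-0.156 to 0.768).

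**Figure D2:**
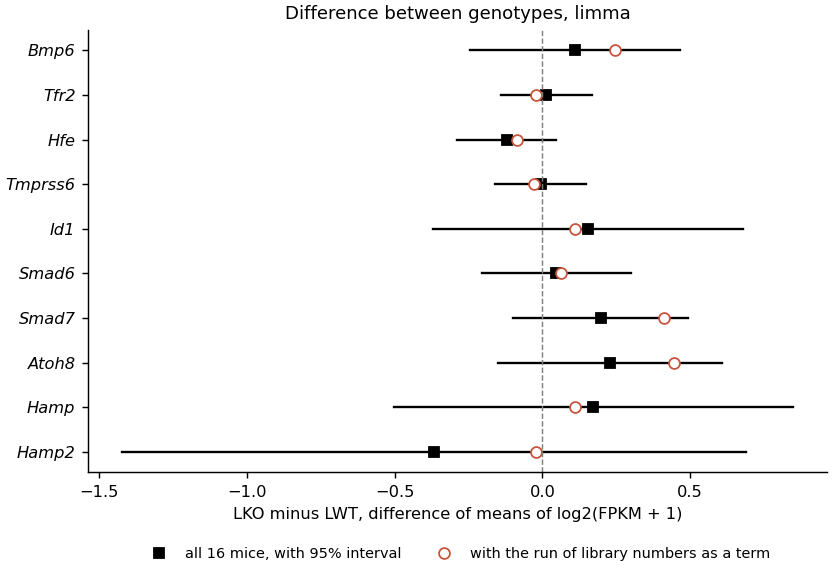
Difference between the genotypes for each of the 10 genes, LKO minus LWT, on log2(FPKM + 1) (horizontal axis). Squares with lines give the limma estimate over 16 mice and its 95% interval, which includes 0 for every gene, and open circles the estimate adjusted for the run of library numbers, which is farther from 0 for *Bmp6* (0.25), *Smad7* (0.41) and *Atoh8* (0.45) and close to 0 for *Hamp2* (-0.02). The adjusted estimate is also farther from 0, though still small, for *Smad6* (0.06), *Tmprss6* (-0.03) and *Tfr2* (-0.02, with a change of sign).

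*Hamp*, the hormone itself, was at 1593, 3801 and 6508 FPKM in the lowest, median and highest *Fgl1* LWT mouse and at 1552, 3710 and 6557 FPKM in the LKO mice. The lowest, median and highest values were thus close to each other between the genotypes, and 4 of 8 LKO mice lay above the LWT median. The log2 fold change was 0.17 (95% interval -0.50 to 0.85, adjusted p = 0.915 from limma, exact permutation p = 0.626). Over 28 alternative settings it stayed between 0.03 and 0.34, with adjusted p between 0.747 and 0.992.

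*Hamp2*, the second hepcidin gene of the mouse, was at 23.8, 87.7 and 384.9 FPKM in the LWT mice and at 21.9, 59.4 and 190 FPKM in the LKO mice. Replicate 2 of the LWT mice had the highest value of all. The log2 fold change was -0.37 (95% interval -1.42 to 0.69, adjusted p = 0.874 from limma, exact permutation p = 0.524), and it was 0.04 without the first run of library numbers, to which that replicate belongs. *Hamp2* made up 0.364% to 8.42% of the FPKM of both genes together, with a median of 2.29%. The log2 ratio of *Hamp* to *Hamp2* was 0.54 higher in LKO, within the spread between mice (exact permutation p = 0.477). Between *Hamp* and *Hamp2* r was -0.32 (permutation p = 0.234, adjusted p = 0.625) and rho -0.36 (permutation p = 0.174, adjusted p = 0.633), with r = -0.50 without the 2 mice farthest from the median of *Hamp2* and -0.20 within runs. The canonical transcripts were identical at 93.3% of 430 aligned bases, and their longest identical stretch was 87 bases, shorter than the reads, so that part of the reads of one could still have been counted for the other.

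**Figure D3:**
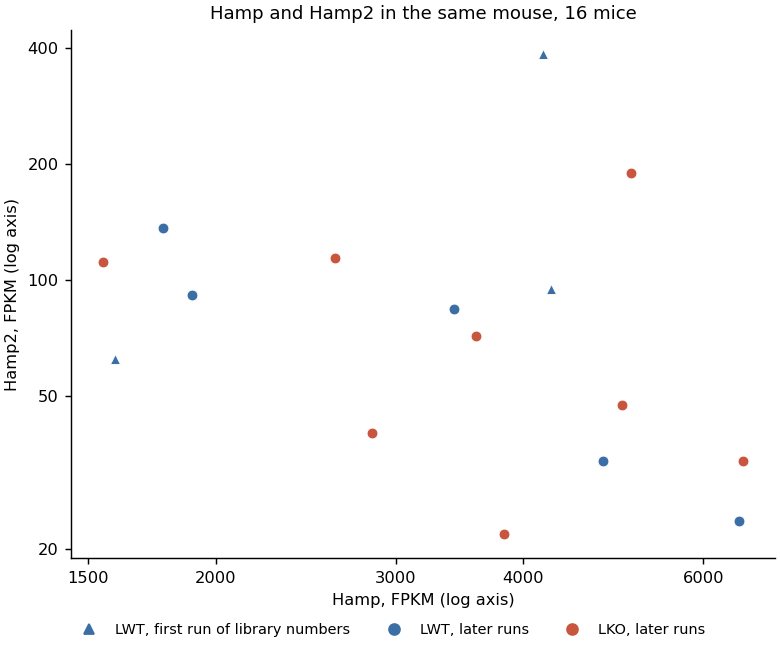
FPKM of *Hamp* (horizontal) against *Hamp2* (vertical) in each of 16 mice, both on log axes, by genotype and with the 3 LWT mice of the first run of library numbers as triangles. The mice with the most *Hamp* (6508 and 6557 FPKM) were among those with the least *Hamp2* (23.8 and 33.8 FPKM). The mice with the most *Hamp2* (384.9 and 190 FPKM) had 4184 and 5096 FPKM of *Hamp*. Pearson's r over all mice was -0.32 (permutation p = 0.234).

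The wider pathway was read in the same fit. Of 12 BMP and activin ligands, 12 receptors and co-receptors, 11 SMAD transducers and their regulators, 8 extracellular antagonists and proteases, 10 BMP target genes, 12 genes of the IL-6 and STAT3 arm and 17 genes of iron transport and storage that were tested, none had an adjusted p under 0.05 with limma, with median log2 fold changes between -0.07 for the antagonists and proteases, which include *Fgl1*, and 0.24 for the IL-6 and STAT3 arm. The most abundant ligands, *Inhbc*, *Inhbe* and *Gdf2* (the gene of BMP9), had log2 fold changes of -0.24, 0.31 and -0.08. *Hjv*, which encodes hemojuvelin, was at 50.6 ± 5.60 FPKM in LWT and 46.3 ± 12.2 FPKM in LKO (SD, n = 8 each, log2 fold change -0.16), and *Eng*, a co-receptor of endothelial cells, had a log2 fold change of 0.12. *Id2* and *Id3*, relatives of *Id1*, had values of 0.25 and 0.0016. *Furin*, whose protease releases soluble hemojuvelin, had 0.11. *Trf*, *Hpx* and *Hp*, the plasma carriers of iron, heme and hemoglobin, had log2 fold changes of -0.00458, -0.02 and 0.12.

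Of the 78 distinct genes tested in these lists, 5 (6.41%) had an unadjusted limma p under 0.05, a share close to the 7.01% over all genes. They were *Fgl1* and 4 others. *Chrd*, which encodes the BMP-binding protein chordin, was lower in LKO (2.98 ± 0.456 against 2.34 ± 0.414 FPKM, SD, n = 8 each, log2 fold change -0.26, exact permutation p = 0.0106, adjusted p = 0.696 from limma). *Smurf1*, a ubiquitin ligase for SMAD proteins and BMP receptors, was also lower (log2 fold change -0.23, exact permutation p = 0.053, adjusted p = 0.696 from limma), while its relative *Smurf2* had 0.11 and the other abundant regulators, *Fkbp1a* and *Ppm1a*, had 0.05 and 0.03. *Il6st*, which encodes the signal-transducing receptor chain gp130, was higher in LKO (22.5 ± 4.19 against 32.9 ± 10.5 FPKM, SD, n = 8 each, log2 fold change 0.49, exact permutation p = 0.0129, adjusted p = 0.696 from limma), as was the kinase gene *Jak1* (log2 fold change 0.20, exact permutation p = 0.0204, adjusted p = 0.696 from limma). None of these passed the threshold over all genes. The acute-phase genes *Saa1* and *Saa2*, targets of STAT3, had log2 fold changes of 0.88 and 0.75 (adjusted p = 0.885 and 0.919 from limma), while their mean FPKM ran the other way, at 4000 and 3800 in LWT and 2430 and 1650 in LKO. *Crp* had a log2 fold change of 0.12.

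No planned relation across mice passed its test. Among 23 relations that were planned (*Hamp* with the other 9 genes, *Saa1*, *Socs3* and, within each genotype, *Fgl1*, and the pairs among *Bmp6* and the 4 target genes), 0 had an adjusted permutation p under 0.05 and 2 an unadjusted one. Over all mice, the highest r with *Hamp* was that of *Atoh8*, with Pearson's r = 0.47 (permutation p = 0.0679, adjusted p = 0.504) and Spearman's rho = 0.41 (permutation p = 0.121, adjusted p = 0.633). Without the 2 mice farthest from the median of *Atoh8*, r was 0.52, and within runs of library numbers it was 0.55. *Smad7* with *Hamp* had r = 0.24 (permutation p = 0.362, adjusted p = 0.625), and 0.55 without its own 2 farthest mice. Within the genotypes, 42 values in all, *Hamp* had r = 0.82 with *Smad7* in LKO (exact permutation p = 0.0112, adjusted p = 0.157) and -0.32 in LWT (exact permutation p = 0.434, adjusted p = 0.806), and r = 0.70 with *Id1* in LKO (exact permutation p = 0.0547, adjusted p = 0.328) and -0.59 in LWT (exact permutation p = 0.127, adjusted p = 0.535). None of the 42 passed after adjustment, and the difference between the genotypes was not tested. *Bmp6* and *Hamp* had r = -0.05 (permutation p = 0.866, adjusted p = 0.948). The 2 pairs with an unadjusted p under 0.05 were *Bmp6* with *Smad6*, with r = 0.59 (permutation p = 0.0169, adjusted p = 0.261) and rho = 0.51 (permutation p = 0.048, adjusted p = 0.514), and *Id1* with *Smad7*, with r = 0.56 (permutation p = 0.0227, adjusted p = 0.261) and rho = 0.51 (permutation p = 0.047, adjusted p = 0.514). Both fell when replicates 3 and 4 of the LKO mice, the farthest from the median, were left out, to 0.40 and 0.37, and within runs they were 0.42 and 0.65. Within the genotypes, *Id1* and *Smad7* had r = 0.80 in LKO (exact permutation p = 0.0108, adjusted p = 0.157) and 0.12 in LWT (exact permutation p = 0.769, adjusted p = 0.924). Other pairs had the higher r in LWT. *Bmp6* and *Smad7* had r = 0.885 in LWT (exact permutation p = 0.00464, adjusted p = 0.157), the smallest p of the 42. In LKO their r was 0.0118 (exact permutation p = 0.98, adjusted p = 0.98). *Smad6* and *Atoh8* had r = 0.765 in LWT (exact permutation p = 0.0293, adjusted p = 0.212) and -0.257 in LKO. For *Bmp6* and *Atoh8* r was 0.616 in LWT and -0.749 in LKO.

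The spread of *Bmp6* between mice went with the level of endothelial marker genes. This and the following relations, 19 in all, were chosen after the data were seen, and every gene shares its library with the markers. The share of all genes that relate as strongly to these markers or to *Saa1* was not computed. The relations are therefore not shown to be particular to the 10 genes. The 10 sinusoidal endothelial markers, among them *Stab2*, *Clec4g* and *Lyve1*, summed to 59.3 to 136 FPKM in LWT and to 44.4 to 161 FPKM in LKO, and 0 of the 10 had an unadjusted limma p under 0.05 between genotypes. *Clec4g* (mean of 30.4 FPKM) and *Fcgr2b* (20.2 FPKM) weigh most in this sum. With this sum *Bmp6* had r = 0.82 (permutation p = 0.00018, adjusted p = 0.00342) and rho = 0.79 (permutation p = 0.00055, adjusted p = 0.0104). Within the genotypes, r was 0.72 in LWT (exact permutation p = 0.0634, adjusted p = 0.172) and 0.89 in LKO (exact permutation p = 0.0036, adjusted p = 0.0961 over 38 such values). Leaving out replicates 3 and 5 of the LKO mice, the highest and the lowest in endothelial markers, left r at 0.72 (adjusted permutation p = 0.0411). *Smad6* had r = 0.76 (permutation p = 0.00059, adjusted p = 0.00386; rho = 0.65, permutation p = 0.00754, adjusted p = 0.0291) and *Tmprss6* also 0.76 (permutation p = 0.00061, adjusted p = 0.00386; rho = 0.67, permutation p = 0.00537, adjusted p = 0.0291). Without the same 2 mice these were 0.59 and 0.62, with adjusted permutation p of 0.0637 and 0.0574. *Hamp* itself had r = 0.02 (permutation p = 0.934, adjusted p = 0.964).

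*Saa1*, a measure of the acute phase, was at 63.8 to 16268 FPKM in LWT and at 68.4 to 7669 FPKM in LKO, with 63.8 to 71.4 FPKM in the first run of library numbers and a like value, 68.4 FPKM, in LKO replicate 3. The mice with the lowest endothelial sums (44.4 and 59.3 FPKM) had 7669 and 16268 FPKM of *Saa1*. Those with the highest sums (161 and 136 FPKM) had 68.4 and 124 FPKM, while LKO replicate 7 was low in both (70.5 and 181 FPKM). The relation between the 2 measures was not computed, so relations with one are not shown to be separate from those with the other. *Saa1* ran opposite to *Bmp6*, with r = -0.68 (permutation p = 0.00394, adjusted p = 0.0187; rho = -0.64, permutation p = 0.00919, adjusted p = 0.0291). *Hamp2* had r = -0.62 (permutation p = 0.0109, adjusted p = 0.036; rho = -0.54, adjusted permutation p = 0.0713), *Tmprss6* -0.62 (permutation p = 0.0115, adjusted p = 0.036; rho = -0.67, adjusted permutation p = 0.0291) and *Smad6* -0.61 (permutation p = 0.0132, adjusted p = 0.036; rho = -0.55, adjusted permutation p = 0.068). *Tfr2* went with *Saa1*, with r = 0.60 (permutation p = 0.0153, adjusted p = 0.0364; rho = 0.65, adjusted permutation p = 0.0291). *Hamp*, a gene that inflammation is known to raise, had r = 0.11 (permutation p = 0.681, adjusted p = 0.824). Leaving out the 2 mice farthest from the median of *Saa1*, replicates 1 and 3 of the LWT mice, left r between -0.61 and -0.69 for these 4 genes and at 0.70 for *Tfr2*. *Hfe* passed by rank and not by r (rho = -0.62, permutation p = 0.0116, adjusted p = 0.0315, and r = -0.54, permutation p = 0.0289, adjusted p = 0.0611), and *Smad7* passed by neither (r = -0.51, adjusted permutation p = 0.0799, and rho = -0.52, adjusted permutation p = 0.0802). Within the genotypes, *Saa1* and *Hamp2* had r = -0.47 in LWT (rho = -0.19) and -0.84 in LKO (rho = -0.88), with adjusted exact permutation p for r of 0.402 and 0.0961. For *Saa1* and *Bmp6* r was -0.89 in LWT and -0.64 in LKO, with adjusted exact permutation p of 0.0961 and 0.196.

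Within runs of library numbers the 8 relations that passed over all mice kept their direction but not their call. Taken as deviations from the mean of each run, r was 0.72 for *Bmp6* with the endothelial markers (adjusted permutation p = 0.0896), 0.68 for *Smad6* (adjusted permutation p = 0.0896) and 0.63 for *Tmprss6* (adjusted permutation p = 0.127), and for *Saa1* it was -0.52 with *Bmp6* (adjusted permutation p = 0.199), -0.47 with *Hamp2* (0.149), -0.59 with *Smad6* (0.143), -0.67 with *Tmprss6* (0.0896) and 0.59 with *Tfr2* (0.0896). None of the 19 had an adjusted p under 0.05 in that form, against 8 over all mice, and 0 with 5 runs. After median-ratio scaling 7 did, and *Saa1* then had r = -0.57 with *Smad6* (adjusted permutation p = 0.0546) and -0.48 with *Tmprss6* (adjusted permutation p = 0.126), while the endothelial sum had r = -0.61 with *Tfr2* (adjusted permutation p = 0.0386).

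**Figure D4:**
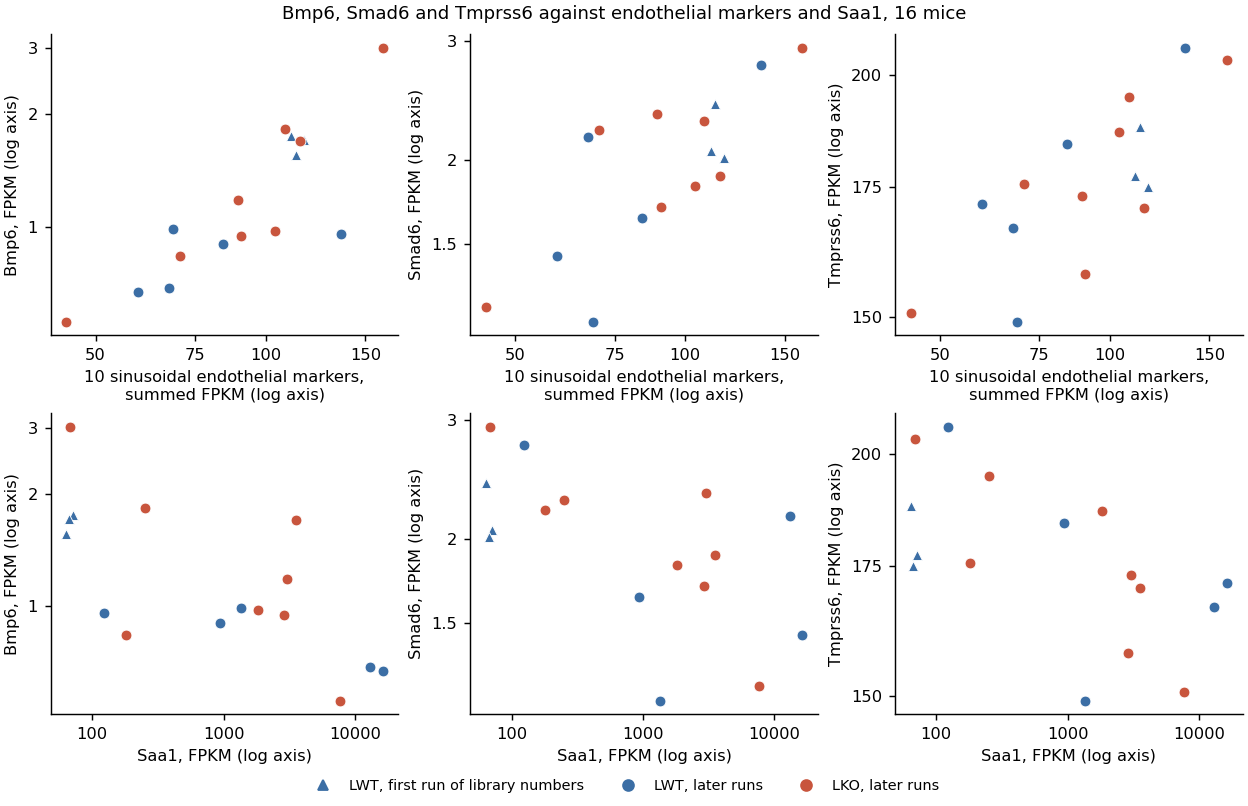
FPKM of *Bmp6*, *Smad6* and *Tmprss6* (vertical) against the summed FPKM of 10 sinusoidal endothelial markers (upper panels) and against *Saa1* FPKM (lower panels) in each of 16 mice, all on log axes, by genotype and with the 3 LWT mice of the first run as triangles. All 3 genes had a positive r with the endothelial sum (0.82, 0.76 and 0.76) and a negative one with *Saa1* (-0.68, -0.61 and -0.62), and replicate 3 of the LKO mice (161 FPKM of endothelial markers, 3.01 FPKM of *Bmp6*) lies at the upper end.

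Of the 43 marker genes tested, 3 (6.98%) had an unadjusted limma p under 0.05 between the genotypes, close to the 7.01% over all genes. The 7 Kupffer cell markers summed to 59.8 to 125 FPKM in LWT and to 74.9 to 157 FPKM in LKO, and 2 of the 7, *Vsig4* (log2 fold change 0.37, exact permutation p = 0.0514) and *Adgre1* (0.39, exact permutation p = 0.0455), had an unadjusted limma p under 0.05, both with an adjusted p of 0.696. All 7 were higher in LKO, with a median log2 fold change of 0.25 against 0.01 over all genes tested, as were all 4 cholangiocyte markers (median 0.16). The part of Kupffer cells in the values of the 10 genes was not tested. The 6 stellate cell markers summed to 69.4 to 110 FPKM in LWT and to 52.6 to 137 FPKM in LKO, the 4 cholangiocyte markers to 2.19 to 4.88 and 3.14 to 7.16 FPKM, the 7 lymphocyte and neutrophil markers to 1.87 to 33.4 and 3.93 to 27.1 FPKM and the 7 erythroid markers to 390 to 946 and 368 to 1110 FPKM, and none of the 6, 4, 4 and 5 genes tested in these lists had an unadjusted limma p under 0.05. Of the pancreatic acinar markers 1 of 6 was tested, *Cela2a*, with a log2 fold change of -0.40 (exact permutation p = 0.0182, adjusted p = 0.696 from limma) at 1.25 FPKM in LWT and 0.708 FPKM in LKO.

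The genes whose pattern over the 16 mice was most like that of a member were searched among the 10036 genes whose mean reached 1 FPKM. For *Hamp* these were *Rxra* (r = 0.76), the gene of a nuclear receptor partner, *Mob2* (0.76), *Senp1* (0.73), *Sfswap* (0.72) and *S100a4* (0.71). For *Id1* they were *Sema4b* (r = 0.83), *Hyal2* (0.82), *Sun2* (0.79), *Zfp36l2* (0.76) and the clock gene *Nr1d1* (0.75). For *Bmp6*, searched after the data were seen, they were *Exoc3l2* (r = 0.92), *Slc17a8* (0.90), *Pde2a* (0.90), *Adgrf5* (0.89) and *Podxl* (0.88), of which *Adgrf5* and *Podxl* are known from endothelium. For *Hamp2*, also searched afterwards, they were *Ktn1* (r = 0.87), *Rspo3* (0.83), *Sub1* (0.82), *Uox* (0.82) and *Rab14* (0.82). These are descriptions over the same 16 libraries, chosen as the highest of many, and carry no test.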

How the data were processed

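The livers of 16 mice, 8 per genotype, were analysed. The authors deposited FPKM values for 17003 genes, made from filtered reads with HISAT (genome mm39) and Bowtie2 (reference genes) (versions, counting step and annotation release not given in the sources used here). FPKM are not counts, and no count test was used. The number of reads per mouse is unknown. The methods state 7 mice per genotype and the labels give 8, all of which were used.

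The 12770 genes whose mean reached 0.1 FPKM were compared on log2(FPKM + 1), which understates the change of low genes, with limma 3.58.1 in R 4.3.3 (trend, two-sided, Benjamini-Hochberg adjustment, threshold 0.05). Single genes were compared by exact permutation over 12870 splits. Relations were tested on log2(FPKM + 1) with 100000 permutations over 16 mice, or 40320 within 8, in Python 3.11.15 with scipy 1.17.1. The limma step was tested on simulated data. GENCODE vM39 gave positions and transcripts. A comparison of promoter sequence is not reported here.

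The members and lists were chosen with earlier results of these data known. Named are the members, *Fgl1*, the 3 most abundant genes of each pathway list and its genes with an unadjusted p under 0.05, marker genes with such a p, and the 5 genes most like *Hamp* and *Id1*. Alternatives were 2 pseudocounts, 2 filters, 3 scalings, robust empirical Bayes, fits adjusted for 4 or 5 runs of library numbers, omission of the first run, a replicate block and leaving out each mouse.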

Additional observations from a re-analysis of the deposited data

How the results depend on the processing

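For the 10 genes, every adjusted p stayed above the threshold under all 28 alternatives, and *Hamp*, *Smad7*, *Atoh8* and *Hfe* kept their direction in all of them. The other 6 genes changed sign in at least 1. *Tfr2* was -0.00504 with median-ratio scaling, -0.022 adjusted for run and -0.0243 without the first run, and leaving out single mice gave -0.0204 to 0.0443 (log2). *Tmprss6* was 0.0027 after rescaling to an equal sum and 0.0105 without the first run, and -0.0407 to 0.0259 leaving out single mice. *Hamp2*, with the main value farthest from 0 (-0.37), was 0.0426 without the first run. Leaving out single mice gave -0.0151 to 0.111 for *Smad6*, with -0.0151 without LWT replicate 8 and -0.00746 without LKO replicate 3, and of the mice left out the latter alone turned *Bmp6* (-0.00457 to 0.19) and *Id1* (-0.0294 to 0.304). Adjusted for 5 runs, *Id1* was -0.0121 and *Tfr2* -0.0132. The cause was not tested. Members with an unadjusted p under 0.05 numbered 2 adjusted for 4 or 5 runs and 2 without the first run, and between 0 and 1 leaving out single mice. Over all genes, 1 gene, *Fgl1*, passed with a replicate block, after rescaling to an equal sum, adjusted for 4 or 5 runs and without the first run. Replicate numbers did not pair the mice (3 of 8 correlations over 0.1, from -0.161 to 0.446), and the block changed no call among the members, whose smallest unadjusted p was 0.137. Of the 895 genes at an unadjusted p under 0.05, 66.3% were higher in LKO, against 47.4% with median-ratio scaling, 41% with quantile normalization, 74.3% with equal sums and 78.8% without the first run. Of the 19 added relations, 8 passed, 5 without the 2 farthest mice and 0 within runs. Without the 2 farthest mice r turned to -0.223, -0.137, -0.0125 and -0.181 for *Hamp* with *Id1*, *Tfr2*, *Hfe* and *Socs3*, to 0.0807 for *Bmp6* with *Atoh8*, and to -0.0497, -0.267 and -0.145 for the endothelial sum with *Hamp*, *Id1* and *Hfe*. Median-ratio scaling gave -0.0437 for *Id1* with *Atoh8* and -0.0626 and -0.126 for the sum with *Hamp* and *Atoh8*, the last being -0.082 within runs. Within 5 runs r was -0.27 for *Bmp6* with *Id1*, 0.164 for *Saa1* with *Id1*, and -0.00109, -0.0707 and -0.0393 for the sum with *Hamp*, *Id1* and *Atoh8*.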
